A study of Homo sapiens with 15 samples.

Results

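The 10 genes described here were THAP2, THAP3, THAP4, THAP5, THAP6, THAP7, THAP8, THAP10, THAP11 and PRKRIR, the older symbol of THAP12. They are paralogs of THAP1 and were chosen by name, as rows of a table of 35805 genes. All 10 passed the filter on low values, as did 16787 genes in all. The question was whether related genes changed their levels when THAP1 was disrupted. THAP proteins share an amino-terminal zinc finger, the THAP domain, which in several members binds DNA in a sequence-specific way. They differ in the rest of the protein, and many recruit cofactors or repressor complexes. THAP1 is a transcription factor whose mutations cause dystonia, and it binds the promoter of PSMB5, which encodes a catalytic subunit of the proteasome. 

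RNA was sequenced from HEK-293T cells, a line derived from embryonic kidney. The 5 groups of 3 libraries were sg1-THAP1 and sg2-THAP1 (Cas9 with 1 of 2 guides against THAP1), sg1-Control and sg2-Control (Cas9 with 1 of 2 control guides) and untransduced cells. Here sgTHAP1 and sgControl denote the 6 libraries of both guides. Per the study's methods, disruption was done in cells with GFP knocked in at PSMB5 and kept viable by exogenous PSMB5, and the THAP1 guide cells were sorted as a GFP-dim population rather than as single clones. The guide and the sort therefore cannot be told apart, nor can Cas9 delivery and the control guide in sgControl against untransduced cells. The sources used here do not state whether control and untransduced cells carried the GFP knock-in and exogenous PSMB5 or were sorted. Any such difference between groups cannot be told apart from the guides either. Values are log2 RPM, that is, log2 of read counts scaled to a common library total. In these bulk cultures, fewer cells with a transcript and less transcript per cell cannot be told apart.

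Library totals were 30645103 to 47754887 reads in sgTHAP1, 31900203 to 56638448 in sgControl and 30400150 to 36548571 in untransduced cells. All 6 HEK-293T markers passed the filter and summed to 1427 to 1624 RPM in sgTHAP1, 1517 to 1666 RPM in sgControl and 1751 to 1782 RPM in untransduced cells. Single HEK-293T markers moved in both directions. IRS4 was at 7.28 to 7.36 log2 RPM in sgTHAP1 against 8.67 to 8.74 in sgControl, and NEFM at 8.61 to 8.89 against 8.09 to 8.40. None of 4 THP-1 markers passed the filter, and 1 of 3 A549 markers did, with the A549 sum at most 2.44 RPM. That marker, KRT81, had 0 to 71 reads in sgTHAP1, 0 to 76 in sgControl and 0 in untransduced cells. The THAP1 transcript was 5.19-fold higher in sgTHAP1 than in sgControl (log2 fold change 2.38 ± 0.11, SE, limma adjusted p = 6.28e-13), at 5.48 to 6.18 log2 RPM in sgTHAP1 against 3.25 to 3.57 in sgControl. Reads of an edited gene are counted like those of an intact one, so this level does not measure loss of the protein. Replicates are biological per the study's methods.

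In sgTHAP1 against sgControl, 7 of the 10 genes rose, 1 fell and 2 did not pass the test. The rises were modest, and no member changed by more than 2-fold. THAP8 rose most (1.62-fold), followed by THAP3 (1.31-fold), THAP2 (1.26-fold), THAP11 (1.22-fold), THAP4 and THAP7 (both 1.21-fold) and THAP10 (1.17-fold). THAP5 fell to 0.864 of its sgControl level, and THAP6 and PRKRIR did not pass. Calls were made at an adjusted p under 0.05 in limma across all tested genes, with no fold threshold. By that rule 20.2% of all tested genes were higher and 32.6% lower, so the 7 members higher stood against a background in which falls outnumbered rises. The median log2 fold change was 0.27 over the 10 members and -0.06 over all tested genes. With each library centred on its median, 8 members were higher and none lower, while 5363 of all 16787 tested genes were higher and 3742 lower. The share of rises among all called genes thereby moved to 58.9%, against 38.2% as deposited. Median centring raised every log2 fold change of this comparison by 0.11, those of sgControl against untransduced cells by 0.16 and those of sgTHAP1 against untransduced cells by 0.27. At an adjusted p under 0.001 and more than 2-fold, which 2.18% of all genes reached, no member was called.

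An exact permutation test (two-sided, 6 sgTHAP1 against 6 sgControl libraries), which treats the libraries of a guide as independent, gave its smallest possible p of 0.00216 for 5 members. These were THAP2, THAP3, THAP4, THAP7 and THAP11, for which all 6 sgTHAP1 libraries lay above all 6 sgControl libraries. That separation was found for 11% of all tested genes, and the opposite one, shown by no member, for 19.9%. Limma's consensus correlation among the libraries of a guide was 0.43. With the guide population as a random block, THAP3, THAP4, THAP7, THAP8 and THAP11 were still called higher, whereas THAP2 (adjusted p = 0.115), THAP10 (adjusted p = 0.241) and THAP5 (adjusted p = 0.0581) were no longer called. Under that setting 2188 of all 16787 tested genes were higher and 3829 lower.

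**Figure D1:**
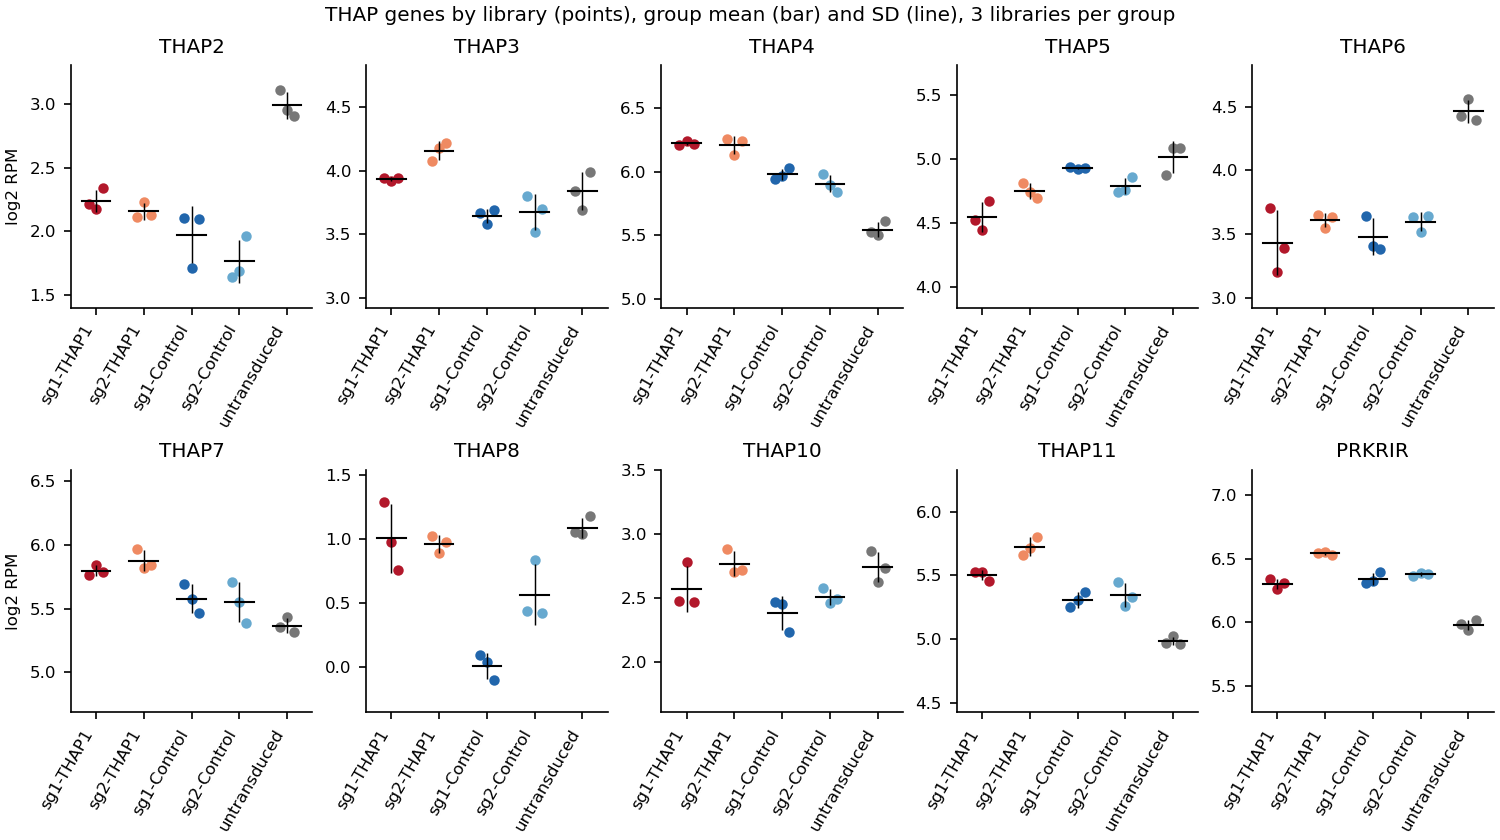
Level of each of the 10 genes in log2 RPM (vertical axis, the same span of 1.9 in every panel) in the 5 groups; points are single libraries, bars the group mean and lines the SD (n = 3). For THAP2, THAP3, THAP4, THAP7 and THAP11 all 6 sgTHAP1 points lie above all 6 sgControl points, and THAP2 and THAP6 are highest in untransduced cells.

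THAP8 was the least abundant member by reads, with 52 to 94 reads per library in sgTHAP1 against 33 to 58 in sgControl. The sg1-THAP1 libraries had 1.29, 0.98 and 0.75 log2 RPM, and the sg2-THAP1 libraries 1.02, 0.89 and 0.98. The sg1-Control libraries had 0.09, 0.03 and -0.10 log2 RPM, and the sg2-Control libraries 0.43, 0.84 and 0.42. The arms overlapped through 1 pair of libraries, since sg1-THAP1 replicate 3 (0.75) lay below sg2-Control replicate 2 (0.84), and 5 of 6 sgTHAP1 libraries lay above every sgControl library. The log2 fold change was 0.70 ± 0.16 (SE, n = 6 against 6, limma adjusted p = 7.91e-04, exact permutation p = 0.00433). In untransduced cells THAP8 stood at 1.05, 1.04 and 1.18 log2 RPM, within the range of the sgTHAP1 libraries.

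THAP3 encodes a small THAP protein that binds the cofactor HCFC1. It was at 3.94, 3.92 and 3.95 log2 RPM with sg1-THAP1 and 4.08, 4.18 and 4.22 with sg2-THAP1, against 3.67, 3.58 and 3.69 with sg1-Control and 3.80, 3.52 and 3.70 with sg2-Control. The sg2-THAP1 libraries were the highest of all and the arms did not overlap. The log2 fold change was 0.39 ± 0.07 (SE, limma adjusted p = 8.1e-05). THAP2 was at 2.21, 2.17 and 2.34 log2 RPM with sg1-THAP1 and 2.11, 2.23 and 2.13 with sg2-THAP1, against 2.11, 1.72 and 2.10 with sg1-Control and 1.64, 1.69 and 1.96 with sg2-Control. Its arms were separated by a small gap, with 2 sg1-Control libraries just below the lowest sgTHAP1 library. The log2 fold change was 0.33 ± 0.10 (SE, limma adjusted p = 0.00686), and with sg1-Control as the only control it was 0.22 (limma adjusted p = 0.104).

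The 3 most abundant members per exonic length rose by similar amounts. THAP11, also known as Ronin, is a partner of HCFC1 that regulates cobalamin metabolism genes and embryonic stem cell growth. It was at 5.53, 5.53 and 5.46 log2 RPM with sg1-THAP1 and 5.66, 5.71 and 5.80 with sg2-THAP1, against 5.25, 5.31 and 5.37 with sg1-Control and 5.45, 5.26 and 5.33 with sg2-Control (log2 fold change 0.29 ± 0.05, SE, limma adjusted p = 1.31e-04). The lowest sgTHAP1 library and the highest sgControl library were nearly level, and the sg2-THAP1 libraries were the highest. THAP4, whose protein carries a heme-binding nitrobindin domain, was at 6.21, 6.24 and 6.22 log2 RPM with sg1-THAP1 and 6.25, 6.13 and 6.24 with sg2-THAP1, against 5.94, 5.97 and 6.03 with sg1-Control and 5.98, 5.89 and 5.84 with sg2-Control (log2 fold change 0.27 ± 0.04, SE, limma adjusted p = 3.14e-06). It had the smallest standard error of the 10, and its arms did not overlap. THAP7, a chromatin-binding repressor that recruits HDAC3 and NCOR1, was at 5.76, 5.84 and 5.79 log2 RPM with sg1-THAP1 and 5.97, 5.82 and 5.84 with sg2-THAP1, against 5.70, 5.57 and 5.47 with sg1-Control and 5.71, 5.56 and 5.39 with sg2-Control (log2 fold change 0.27 ± 0.05, SE, limma adjusted p = 1.67e-04). Replicate 1 was the highest THAP7 library in both control guides and all were below every sgTHAP1 library.

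THAP10 was at 2.47, 2.78 and 2.46 log2 RPM with sg1-THAP1 and 2.88, 2.70 and 2.72 with sg2-THAP1, against 2.46, 2.45 and 2.23 with sg1-Control and 2.58, 2.46 and 2.49 with sg2-Control. The arms overlapped, with 4 of 6 sgTHAP1 libraries above every sgControl library. Its log2 fold change of 0.22 ± 0.09 (SE, limma adjusted p = 0.0366, exact permutation p = 0.0260) was the smallest of the rises. It did not pass when any of 8 libraries was left out (limma adjusted p up to 0.0956): each sg1-Control and each sg2-THAP1 library, sg2-Control replicate 2 and sg1-THAP1 replicate 2.

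THAP5, a cell cycle inhibitor and a substrate of the protease HTRA2, was the member that fell. It was at 4.52, 4.44 and 4.67 log2 RPM with sg1-THAP1 and 4.82, 4.74 and 4.69 with sg2-THAP1, against 4.94, 4.92 and 4.93 with sg1-Control and 4.74, 4.76 and 4.86 with sg2-Control. The sg1-THAP1 libraries lay below every control library, whereas the sg2-THAP1 libraries overlapped those of sg2-Control. The log2 fold change was -0.21 ± 0.06 (SE, limma adjusted p = 0.00749, exact permutation p = 0.0108). Relative to the median of all genes it was -0.15, and after median centring it was -0.10 (limma adjusted p = 0.138), so the fall was not called on that scale.

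THAP6 and PRKRIR did not pass. THAP6 was at 3.71, 3.21 and 3.39 log2 RPM with sg1-THAP1 and 3.65, 3.55 and 3.64 with sg2-THAP1, against 3.65, 3.41 and 3.38 with sg1-Control and 3.64, 3.52 and 3.64 with sg2-Control, a log2 fold change of -0.02 ± 0.08 (SE, limma adjusted p = 0.886). The groups overlapped throughout. PRKRIR encodes a THAP protein named for its link to DNAJC3 and the kinase PKR, and it was the most abundant of the 10 in log2 RPM. It was at 6.34, 6.26 and 6.31 log2 RPM with sg1-THAP1 and 6.55, 6.55 and 6.53 with sg2-THAP1, against 6.31, 6.32 and 6.39 with sg1-Control and 6.36, 6.39 and 6.38 with sg2-Control. All sg2-THAP1 libraries lay above every control library and all sg1-THAP1 libraries within or below the control range, and over both guides the log2 fold change was 0.06 ± 0.05 (SE, limma adjusted p = 0.289). After median centring it was 0.18 (limma adjusted p = 3.74e-04), and it was also called higher under some of the other alternatives.

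THAP9, a family gene derived from a transposase that is not among the 10, was in the table and fell. It was at 2.49 to 2.78 log2 RPM in sgTHAP1 (median 2.61), against 2.93 to 3.14 in sgControl (median 3.06). The arms did not overlap (log2 fold change -0.43 ± 0.07, SE, limma adjusted p = 4.6e-05). THAP9 shares 199 exonic bases with THAP9-AS1 and 84 with SEC31A, both on the opposite strand. THAP9-AS1 averaged 5.79 log2 RPM, against 2.96 for THAP9, and also fell (log2 fold change -0.35, limma adjusted p = 8.59e-07). SEC31A was not called (log2 fold change -0.03, limma adjusted p = 0.469). Whether reads of these genes were counted for THAP9 was not tested. As counted, a rise was therefore not shared by every paralog of THAP1 in the table.

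**Figure D2:**
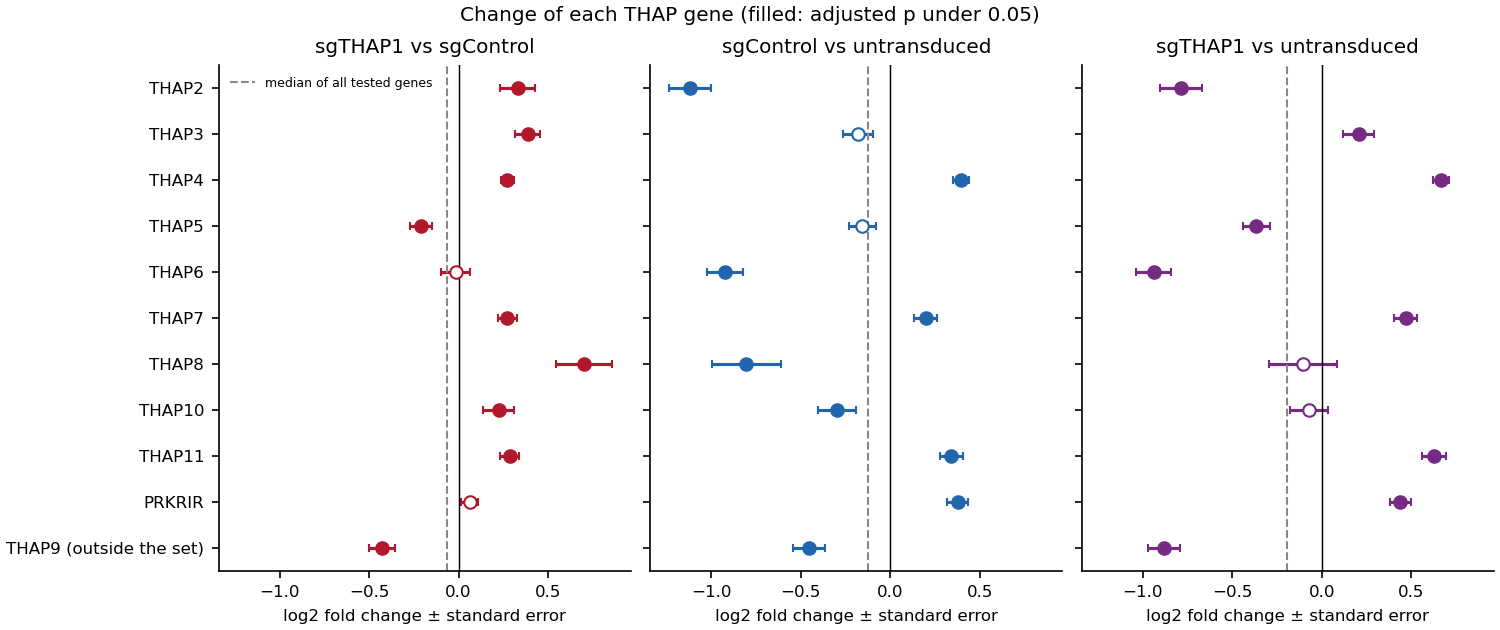
Log2 fold change (horizontal axis, points with standard errors) of the 10 genes and of THAP9 in 3 comparisons; filled points passed an adjusted p under 0.05, and the dashed line is the median of all tested genes. In sgTHAP1 against sgControl 7 of 10 members lie to the right and are filled, whereas in sgControl against untransduced cells 4 are higher and 4 lower.

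Upstream sequence from RefSeq (GRCh38.p14) was matched for 9 of the 10 genes, as 250 bases before and 50 after the annotated start. These 300 bases were searched on both strands for the letters TNNNGGCA of the THAP1 motif, AANATGGC of the YY1 motif and ACTACA, shared by ZNF143 and THAP11 motifs. TNNNGGCA was present for THAP3, which rose, and THAP5, which fell, that is 2 of 9 members, against 41.7% of all 35116 promoters, and AANATGGC for THAP2, THAP4 and THAP6, against 6.58% of all promoters. ACTACA was in none of the 9 and in 8.46% of all promoters. With 1 base less between the letters (TNNGGCA), matches were in THAP2, THAP4 and THAP8, against 39.8% of all promoters. No match overlapped another in the printed windows. Of the 2 members with the largest rise, THAP3 held TNNNGGCA and THAP8 none of the 3 motifs in its searched window. Shown are the 250 bases before the RefSeq start for THAP8 and THAP3, with the largest rises, and THAP2, which held the YY1 letters. They lie at chr19:36054286-36054535 on the minus strand (THAP8), chr12:71664051-71664300 on the plus strand (THAP2) and chr1:6624618-6624867 on the plus strand (THAP3). Each is written 5′ to 3′ in the direction of the gene, with matches to TNNNGGCA or AANATGGC in capitals.
THAP8: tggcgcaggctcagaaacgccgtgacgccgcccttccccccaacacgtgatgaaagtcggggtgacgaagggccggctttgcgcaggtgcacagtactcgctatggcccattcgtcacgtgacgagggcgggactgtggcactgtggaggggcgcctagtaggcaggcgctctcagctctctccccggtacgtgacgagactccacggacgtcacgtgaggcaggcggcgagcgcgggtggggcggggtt
THAP2: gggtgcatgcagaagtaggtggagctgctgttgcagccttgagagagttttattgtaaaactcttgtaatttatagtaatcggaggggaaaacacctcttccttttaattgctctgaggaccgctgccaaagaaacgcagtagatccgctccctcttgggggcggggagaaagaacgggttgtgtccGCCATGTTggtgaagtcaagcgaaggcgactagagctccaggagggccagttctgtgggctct
THAP3: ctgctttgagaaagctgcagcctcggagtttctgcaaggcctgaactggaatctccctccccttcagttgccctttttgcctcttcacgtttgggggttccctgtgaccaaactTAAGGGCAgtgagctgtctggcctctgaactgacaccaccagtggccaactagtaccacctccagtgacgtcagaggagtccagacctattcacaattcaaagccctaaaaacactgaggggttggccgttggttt
In THAP2 the capitals are AANATGGC on the opposite strand, at positions -63 to -56 from the start. In THAP3 they are TNNNGGCA on the strand of the gene, at positions -136 to -129. Of the members that rose, THAP7, THAP8, THAP10 and THAP11 held neither TNNNGGCA nor AANATGGC in these windows. The windows follow RefSeq starts, and other annotations place some starts elsewhere. By GENCODE, THAP8 starts at 36054739 and THAP6 at 75513946, so their windows lie inside the genes. By the gene coordinates deposited with the values, the windows of THAP2, THAP4, THAP6, THAP8 and THAP10 lie inside the genes. Sequence before those other starts was not searched.

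Reads of some members may be shared with genes on the other strand, because the libraries were strand-specific but the use of strand in counting is not given in the sources used here. In GENCODE 44, 34.9% of the exonic bases of THAP3 are also exonic in DNAJC11 and 20.3% of those of THAP11 in CENPT, both on the opposite strand. In sgTHAP1 against sgControl the log2 fold change was -0.08 for DNAJC11 (limma adjusted p = 0.0523) and -0.05 for CENPT (limma adjusted p = 0.277), so neither moved as its THAP neighbour did. For THAP7, 10.8% of exonic bases are shared with THAP7-AS1, which rose with it (log2 fold change 0.30, limma adjusted p = 0.00348). The share was at most 5.05% for the other 7 members. By GENCODE 44 starts, THAP8 starts 90 bases from WDR62, which is read in the other direction and fell (log2 fold change -0.42, limma adjusted p = 9.01e-09). They share 91 exonic bases, and WDR62 averaged 5.91 log2 RPM against 0.73 for THAP8. A share of bases is not a share of reads, which was not tested. In sgControl against untransduced cells WDR62 rose by 0.44 (limma adjusted p = 3.55e-08), while THAP8 fell. THAP5 starts 117 bases from DNAJB9, an endoplasmic reticulum chaperone gene that fell with it in sgTHAP1 against sgControl (log2 fold change -0.96, limma adjusted p = 7.14e-09). In sgControl against untransduced cells DNAJB9 rose by 0.46 (limma adjusted p = 4.62e-04), while THAP5 was not called. In sgTHAP1 against sgControl, ATG4B, 55 bases from THAP4, rose by 0.14 (limma adjusted p = 0.00187). RCHY1, 818 bases from THAP6 by start and sharing 315 exonic bases with it on the opposite strand, had a log2 fold change of -0.17 there (limma adjusted p = 0.00856).

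The 2 THAP1 guides gave different changes for some members. On the log2 scale (SE), THAP3 was 0.50 ± 0.07 higher with sg2-THAP1 and 0.28 ± 0.07 higher with sg1-THAP1 than in sgControl, and THAP11 was 0.40 ± 0.04 higher with sg2-THAP1 and 0.18 ± 0.04 higher with sg1-THAP1. In sg2-THAP1 against sg1-THAP1, 4 members were higher, THAP3 (log2 fold change 0.22, limma adjusted p = 0.0206), THAP5 (0.21, limma adjusted p = 0.00537), THAP11 (0.22, limma adjusted p = 3.42e-04) and PRKRIR (0.24, limma adjusted p = 9.15e-07), and none was lower. Of all tested genes, 28.3% were higher and 11.7% lower in that comparison, and the median was 0.08. THAP3 did not pass without sg1-THAP1 replicate 2, sg2-THAP1 replicate 2 or sg2-THAP1 replicate 3 (limma adjusted p of 0.0554, 0.0608 and 0.0900), nor THAP5 without sg1-THAP1 replicate 2 (limma adjusted p = 0.0627), whereas THAP6 passed as higher without sg1-THAP1 replicate 1 (0.31, limma adjusted p = 0.00541). The split depended on scaling. After median centring 1 member was higher (PRKRIR) and 1 lower (THAP4, log2 fold change -0.11, limma adjusted p = 0.0347). On that scale 2673 of all 16787 tested genes were higher and 3737 lower. The share of rises among called genes was 41.7%, against 70.7% as deposited.

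Taken guide by guide, THAP2, THAP3, THAP4, THAP7, THAP8 and THAP11 were higher than sgControl with both guides. For sg2-THAP1, 8 members were higher and none lower, against 25.6% and 30.6% of all genes. For sg1-THAP1, 6 members were higher and 1 lower, against 20.1% and 39.3% of all genes. THAP10 and PRKRIR were called with sg2-THAP1 only at 0.32 ± 0.10 and 0.18 ± 0.03, against 0.13 ± 0.10 and -0.06 ± 0.03 with sg1-THAP1 (log2, SE), whereas THAP5 was at -0.11 ± 0.05 with sg2-THAP1, which was not called, and at -0.31 ± 0.05 with sg1-THAP1, which was. The difference between guides itself passed for PRKRIR and THAP5 but not for THAP10 (limma adjusted p = 0.185). No member was called between sg2-Control and sg1-Control, where 3.88% of all genes were, although THAP8 differed by 0.55 ± 0.21 (log2, SE, limma adjusted p = 0.150).

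**Figure D3:**
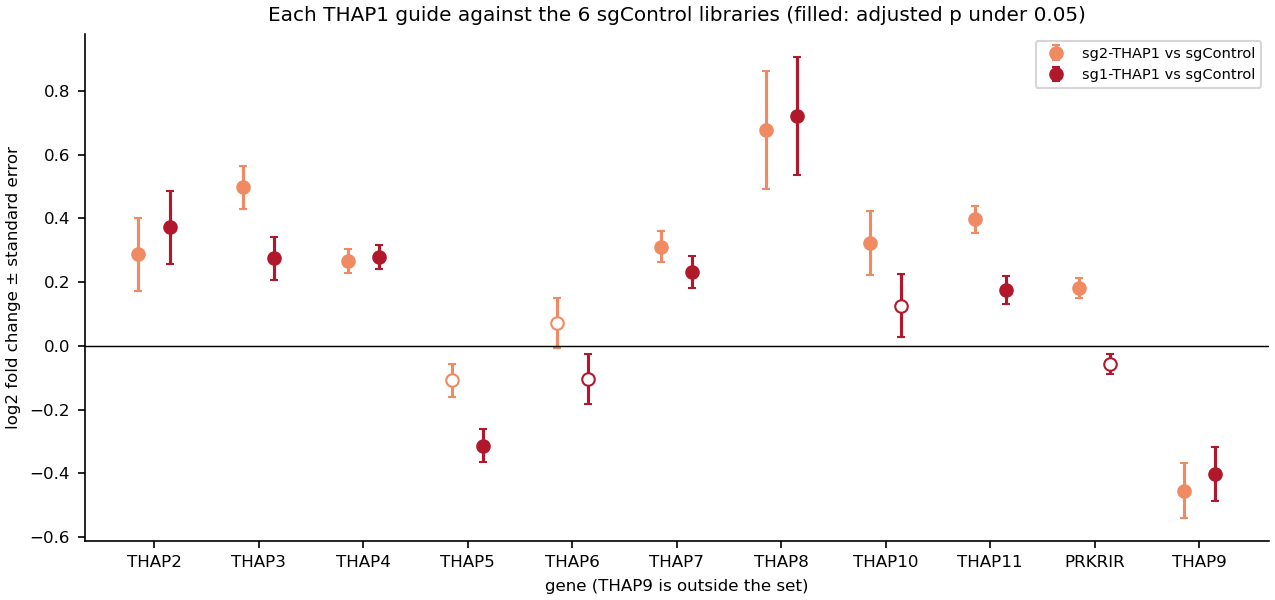
Log2 fold change with its standard error (vertical axis) of each gene for sg2-THAP1 and sg1-THAP1, each against the 6 sgControl libraries; filled points passed an adjusted p under 0.05. THAP8 has the largest change with both guides, 0.68 and 0.72, and THAP11, THAP3, THAP5 and PRKRIR sit higher with sg2-THAP1.

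In sgControl against untransduced cells the members split, with 4 higher, 4 lower and 2 that did not pass. THAP2 fell to 0.461 of its untransduced level, THAP6 to 0.528, THAP8 to 0.573 and THAP10 to 0.815, whereas THAP4 (1.32-fold), PRKRIR (1.30-fold), THAP11 (1.27-fold) and THAP7 (1.15-fold) rose. Of all tested genes 28.1% were higher and 40.5% lower, so the 4 members in each direction were read against a background of that size. The median log2 fold change was -0.17 over the members and -0.12 over all genes, and relative to that median THAP2 changed by -0.99, THAP6 by -0.80 and THAP4 by 0.52. All 6 sgControl libraries lay above the 3 untransduced libraries for THAP4, PRKRIR and THAP11 (27.3% of all genes) and below them for THAP2, THAP6, THAP8 and THAP10 (39.8% of all genes). After quantile normalization 2 members were lower, THAP2 and THAP6, while THAP8 was at -0.22 (limma adjusted p = 0.330) and THAP10 turned to 0.13 (limma adjusted p = 0.250). On that scale 5659 of all 16787 tested genes were higher and 5314 lower. THAP10 did not pass without untransduced replicate 1 (limma adjusted p = 0.106), nor THAP7 without untransduced replicate 3 (limma adjusted p = 0.0522). With the guide population as a random block, 3 members were higher and 3 lower, since THAP7 (limma adjusted p = 0.0930) and THAP10 (limma adjusted p = 0.160) did not pass. Under that setting 3849 of all 16787 tested genes were higher and 4948 lower. THAP3 passed as lower without untransduced replicate 2 (limma adjusted p = 0.0250) or sg2-Control replicate 1 (limma adjusted p = 0.0388), and THAP5 without untransduced replicate 1 (limma adjusted p = 0.0270). At an adjusted p under 0.001 and more than 2-fold, which 11% of all genes reached, THAP2 was the single member called.

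The untransduced libraries show which of these members stood apart from every transduced library. THAP2 was at most 2.34 log2 RPM in any transduced library, against 3.11, 2.95 and 2.90 in untransduced cells. THAP6 was at most 3.71 log2 RPM in any transduced library, against 4.43, 4.56 and 4.39 in untransduced cells. For both, untransduced cells were the highest group. THAP4 was at least 5.84 in every transduced library, against 5.53, 5.50 and 5.61 in untransduced cells, and PRKRIR at least 6.26, against 5.99, 5.94 and 6.02. In untransduced cells THAP11 (4.97, 5.02 and 4.97) was also below every transduced library, and THAP7 (5.35, 5.43 and 5.32) overlapped sg2-Control. THAP10 (2.86, 2.62 and 2.74 in untransduced cells), THAP3 (3.84, 3.69 and 3.99) and THAP5 (4.87, 5.08 and 5.09) overlapped at least 1 transduced group.

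Set directly against untransduced cells, sgTHAP1 had 5 members higher and 3 lower, against 26.9% and 45.5% of all genes. This comparison and the preceding ones share libraries, so the values are given side by side. THAP4, THAP11, THAP7 and PRKRIR were higher by 0.67, 0.63, 0.47 and 0.44 on the log2 scale (limma adjusted p at most 1.32e-06), and THAP3 by 0.21 (limma adjusted p = 0.0344). THAP3 did not pass when any of 5 libraries was left out, untransduced replicate 1 or 2 or any sg2-THAP1 library (limma adjusted p up to 0.222), nor with the guide population as a random block (limma adjusted p = 0.170). THAP2, THAP5 and THAP6 were lower by -0.79, -0.37 and -0.94 (limma adjusted p at most 2.45e-04), of which THAP2 did not pass after quantile normalization (limma adjusted p = 0.0807) nor THAP5 after median centring (limma adjusted p = 0.201). THAP8 had a log2 fold change of 0.70 against sgControl and of -0.10 ± 0.19 against untransduced cells (SE, limma adjusted p = 0.636), and THAP10 of 0.22 and -0.07 ± 0.11 (SE, limma adjusted p = 0.559), as deposited. After quantile normalization both were higher than in untransduced cells, THAP8 by 0.63 (limma adjusted p = 0.00659) and THAP10 by 0.50 (limma adjusted p = 1.83e-04). All 6 sgTHAP1 libraries lay above the untransduced libraries for THAP4, THAP7, THAP11 and PRKRIR (23.5% of all genes) and below them for THAP2, THAP5 and THAP6 (41.4% of all genes).

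Levels were compared between genes as RPM per kb of exon in GENCODE 44, which includes the shared bases above. The length was that of all annotated exons of a gene merged, from 1803 bases for THAP8 to 8802 for PRKRIR. It is not the length of the transcripts expressed, and the annotation used for counting is not given. The order between genes depends on this length. THAP11 averaged 26.2 RPM per kb in sgTHAP1, 21.4 in sgControl and 16.9 in untransduced cells, and THAP4 averaged 26.0, 21.5 and 16.4 in the same groups. Their ranges over libraries overlapped in every group, and THAP7 came next at 19.9, 16.5 and 14.3. PRKRIR averaged 9.77 RPM per kb in sgTHAP1, 9.33 in sgControl and 7.19 in untransduced cells, and THAP5 averaged 4.98, 5.75 and 6.41. THAP3 (4.08 in sgTHAP1, 3.11 in sgControl and 3.54 in untransduced cells) overlapped THAP10 (3.12, 2.67 and 3.27) in sgControl and in untransduced cells and THAP5 in sgTHAP1. THAP6 averaged 1.63 RPM per kb in sgTHAP1, 1.64 in sgControl and 3.10 in untransduced cells, where it overlapped THAP10 and THAP3. THAP2 (0.878, 0.704 and 1.52) and THAP8 (1.11, 0.693 and 1.18) were lowest in every group, and their ranges overlapped in sgTHAP1 and in sgControl. THAP1 itself averaged 23.5 RPM per kb in sgTHAP1, 4.44 in sgControl and 4.36 in untransduced cells. The 10 members together summed to 314.9 to 354.1 RPM in sgTHAP1, 288.4 to 304.7 in sgControl and 265.1 to 272.0 in untransduced cells.

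**Figure D4:**
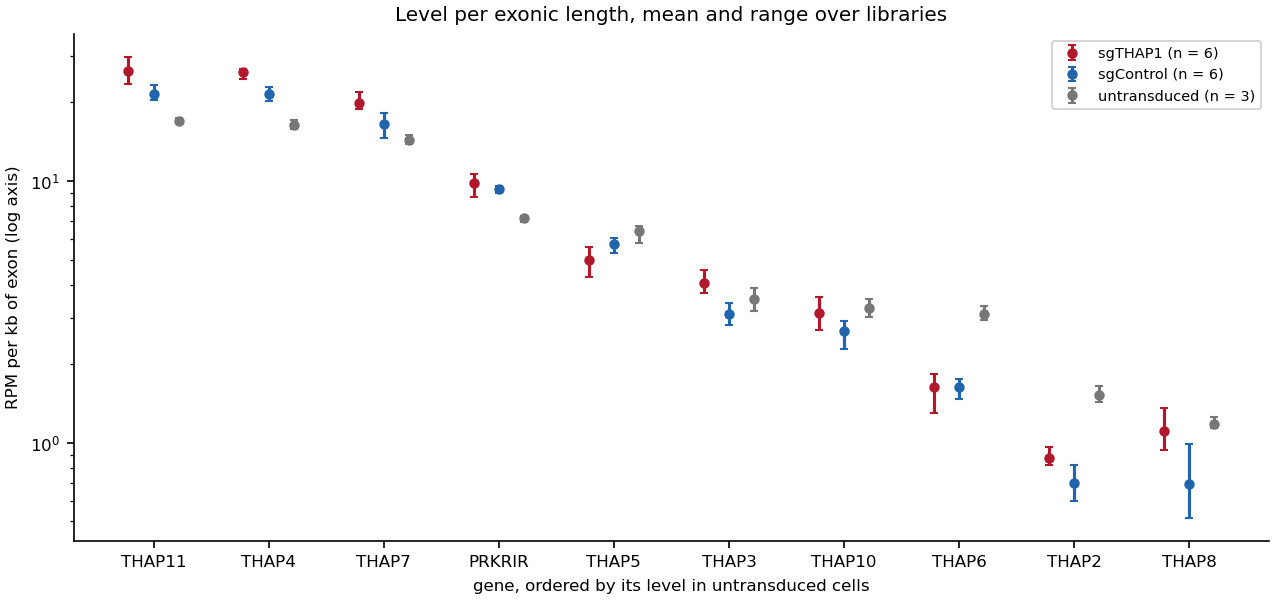
RPM per kb of exon (vertical log axis) of each member in sgTHAP1 (n = 6), sgControl (n = 6) and untransduced cells (n = 3); points are means and bars the range over libraries. THAP11, THAP4 and THAP7 are highest at 14.3 to 26.2, and THAP2 and THAP8 lowest at 0.693 to 1.52.

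Of 14 known partners and related factors of THAP proteins, 3 were higher and 5 lower in sgTHAP1 than in sgControl, with a median log2 fold change of -0.02. Of all tested genes 20.2% were higher and 32.6% lower, so these counts were about the background. OGT, the O-GlcNAc transferase that glycosylates and cleaves HCFC1, fell to 7.10 to 7.47 log2 RPM in sgTHAP1 (median 7.28), against 7.94 to 8.04 in sgControl (median 7.99), a log2 fold change of -0.71 (limma adjusted p = 3.12e-09). HTRA2, the mitochondrial protease that cleaves THAP5, rose to 5.21 to 5.50 (median 5.45), against 4.97 to 5.10 (median 5.04), a log2 fold change of 0.36 (limma adjusted p = 3.15e-06). SET, a histone-binding inhibitor of acetylation, rose by 0.16 (limma adjusted p = 3.56e-06), and EIF2AK2, which encodes PKR, fell by 0.40 on the log2 scale (limma adjusted p = 3.36e-05). In sgControl against untransduced cells the log2 fold change was -1.13 for OGT, -0.21 for HTRA2, 0.36 for SET and 0.40 for EIF2AK2. Mean EIF2AK2 was 5.58 log2 RPM in sgTHAP1, 5.98 in sgControl and 5.58 in untransduced cells. The sgTHAP1 and sgControl arms did not overlap for OGT, HTRA2, SET or EIF2AK2. These were named for having the smallest adjusted p of the 14 in sgTHAP1 against sgControl. Their separation follows largely from that choice and adds no independent evidence. Of all tested genes, 11% had every sgTHAP1 library above every sgControl library, and 19.9% had every one below.

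The genes most like THAP8 and THAP3 were found among 12417 genes with a mean of at least 1 log2 RPM. Likeness was the root mean square difference over the 15 libraries between profiles each set to its untransduced mean. The nearest to THAP8 were TMEM143 (0.194), GEMIN8 (0.205) and C11orf68 (0.206), whose log2 fold changes in sgTHAP1 against sgControl were 0.73, 0.58 and 0.49. The nearest to THAP3 were AURKB (0.0794), MED8 (0.0837) and EXOSC7 (0.0861), with log2 fold changes of 0.35, 0.37 and 0.36. Because likeness was taken over the same libraries, similar fold changes follow largely from that choice. These are descriptions over libraries that share a normalization, with no test.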

How the data were processed

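Polyadenylated RNA of 15 libraries was sequenced from strand-specific preparations. The authors trimmed reads with Cutadapt, aligned them to GRCh38 with HISAT2 and made 1 table in SeqMonk. Its deposited log2 RPM values are per gene, with 0 reads listed at 0.9 of a read. Neither annotation release nor the use of strand in counting was given in the sources used here.

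Genes were kept at log2 RPM of -2 or more in 3 or more libraries, which left 16787 of 35805. They were fitted with limma 3.58.1 (R 4.3.3) using moderated variances with an intensity trend and Benjamini-Hochberg adjustment over all tested genes. sgTHAP1, sgControl and untransduced cells had 1 coefficient each, and differences between guides came from a fit with 1 coefficient per guide. Single members were also compared by exact two-sided permutation tests (scipy 1.17.1). Depth was 30400150 to 56638448 reads per library, and members had 33 to 4537 reads, with the least precision for THAP8.

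Named genes were the members, THAP1, the 4 listed partners with the smallest adjusted p and the 3 genes most like each of the 2 members with the largest change. THAP9, genes that overlap or adjoin members or THAP9, and the THAP1 motif with 3 free bases, as the study defines it, in place of 2 were added after values were seen. Members and lists were chosen with earlier results of these data known. Alternatives were other filters, offsets, scalings, weights and blocks, single guides and each library left out. The fit was tested on simulated data with independent libraries. These lack the correlation of 0.43 among libraries of a guide, so they do not test its effect on the calls.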

Additional observations from a re-analysis of the deposited data

Results flagged for a closer look

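In sgTHAP1, THAP4 had 1 library far from the other 5, sg2-THAP1 replicate 2 at 6.13 log2 RPM. In sgControl, THAP10 had 1 such library, sg1-Control replicate 3 at 2.23 log2 RPM. These were 2 of 20 groups of 6 examined with Dixon's test, which by chance marks about 1 in 20 samples of independent normal values. Each group of 6 pooled the libraries of 2 guides, so that rate need not hold here.

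The changes of 4 members from sgControl differed between the THAP1 guides in limma's test of the difference itself. In sg2-THAP1 minus sg1-THAP1 the difference was 0.22 for THAP3 (limma adjusted p = 0.0206), 0.21 for THAP5 (limma adjusted p = 0.00537), 0.22 for THAP11 (limma adjusted p = 3.42e-04) and 0.24 for PRKRIR (limma adjusted p = 9.15e-07), all on the log2 scale and with 3 libraries per guide. The median of all genes in that comparison was 0.08, and after median centring only PRKRIR of these 4 passed.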

How the results depend on the processing

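In sgTHAP1 against sgControl, THAP3, THAP4, THAP7, THAP8 and THAP11 kept their direction and call under all alternatives except the threshold of an adjusted p under 0.001 and more than 2-fold, which left 0 members higher and 0 lower. The 1 member lower, THAP5, became 0 with quantile normalization, median centring, the guide population as a random block, sg2-THAP1 alone or sg2-Control alone. THAP6, which was not called, took a positive sign with quantile normalization (0.0904), median centring (0.10), array weights (0.0475), sg2-THAP1 alone (0.0728) and sg1-Control alone (0.0440), and lay between -0.0519 and 0.0477 when single libraries were left out. PRKRIR, which was not called, was -0.0567 with sg1-THAP1 alone and was called higher with quantile normalization (limma adjusted p = 0.0225), median centring (3.74e-04), array weights (0.0139), 1 coefficient per guide (0.0341) and sg2-THAP1 alone (3.38e-05).

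In sgControl against untransduced cells, quantile normalization left 2 members lower in place of 4, with THAP3 at 0.0527 and THAP10 at 0.13, and median centring put THAP5 at 0.00172. In sgTHAP1 against untransduced cells, THAP8 was 0.63 and THAP10 0.50 with quantile normalization and 0.17 and 0.20 with median centring. In sg2-THAP1 against sg1-THAP1, 2 members were higher with quantile normalization and 1 with median centring, which also gave 1 lower and THAP7 at -0.0200. Of all 16787 tested genes, 2962 were higher and 3014 lower there with quantile normalization, and 2673 and 3737 with median centring. With single libraries left out, 2 to 5 members were higher there, 2 of them without sg1-THAP1 replicate 2, THAP4 lay between -0.0345 and 0.0270 and THAP8 between -0.17 and 0.10. In the other comparisons, single libraries left out gave 6 to 7 higher and 1 lower (sgTHAP1 against sgControl), 3 to 4 and 4 to 5 (sgControl against untransduced cells) and 4 to 5 and 3 (sgTHAP1 against untransduced cells). The causes were not tested.

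Same-numbered libraries did not deviate together (correlations from -0.13 to 0.04 over 30 pairs), and with replicate number as a block the members called were 7 higher and 1 lower, 4 and 4, 5 and 3, and 4 and 0 in the 4 comparisons. Of all 16787 tested genes, 3253 were higher and 5323 lower, 4648 and 6666, 4456 and 7529, and 4724 and 1953 with that block. Depth limits THAP8 most, at 33 to 94 reads per library.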
